A study of Mus musculus with 24 samples.

Results

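The gastrocnemius of sedentary, PBS-injected mdx mice was compared with that of wild-type mice on bead arrays. The comparison took 9 of the study's 24 arrays, chosen by their titles: 5 arrays of mdx mice given PBS for 7 weeks and 4 arrays of wild-type mice with no treatment. The mdx mice carry a mutation in the dystrophin gene in every cell, and their strain is labelled Mdx. The wild-type mice are labelled C57Bl/10ScSnJ. All 9 arrays carried the label male and shared an age label of 6 to 7 weeks, which does not say whether it belongs to the start or the end of the 7 weeks. No injection is named for wild type, so genotype and PBS injection cannot be told apart. The other 15 arrays came from mdx mice that ran, received sActRIIB-Fc or both. They entered the normalisation, the detection filter, the choice of probe and the estimate of each gene's spread.

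Dystrophin links the actin cytoskeleton of the muscle fibre to laminin outside the cell, through a complex of membrane proteins. Without it the membrane tears during contraction, and mouse muscle then passes through repeated rounds of fibre death, clearance by macrophages and regeneration from satellite cells. Regenerating fibres switch on the myosins, actins and acetylcholine receptor subunits of fetal muscle, and collagen-rich matrix is laid down between them.

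A probe counted as detected on an array at a detection p under 0.05. Levels are log2 values of background-corrected, quantile-normalised bead signal, and a log2 change is the mdx mean minus the wild-type mean ± its standard error in the linear model. A gene passed when limma's moderated test gave an adjusted p under 0.05 over 8945 tested genes. The mdx arrays detected 10938 to 11744 of 25697 probes and the wild-type arrays 10404 to 10634, with no overlap between the groups (11450 ± 309 against 10543 ± 99.8, SD, exact two-sided permutation p = 0.016). Correlations between arrays ran from 0.986 to 0.993 within mdx, from 0.965 to 0.990 within wild type and from 0.925 to 0.963 between the groups. Transcripts of hepatocytes differed between arrays of 1 group: the mean level of 5 such genes ranged from 4.68 to 8.81 on the mdx arrays, highest on replicate 4, and from 4.82 to 12.33 on the wild-type arrays, highest on replicate 2. Nothing in the labels says whether arrays came from separate animals, and p-values measure the spread between these arrays. In whole muscle, fewer cells of a type and less RNA per cell cannot be told apart.

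The mutated gene could not be read on these arrays. Both Dmd probes lay between 4.50 and 4.90 on the mdx arrays and between 4.52 and 4.89 on the wild-type arrays, and neither was detected on any of the 24 arrays, so they check no label. Mstn (myostatin), Pax7 (the satellite cell factor) and Alb (albumin) were likewise detected on none, and no probe was named for Myh2 or Myh3. The labelled tissue held its markers. The skeletal actin Acta1 averaged 14.70 ± 0.04 in mdx and 14.67 ± 0.07 in wild type (SD), the muscle creatine kinase Ckm 14.64 ± 0.05 and 14.74 ± 0.05, the fast myosin light chain Mylpf 14.92 ± 0.03 and 14.92 ± 0.03, and the fast troponin Tnnt3 14.52 ± 0.06 and 14.47 ± 0.05. None of the 4 passed, but with equal medians of the passing probes, described below, all 4 were called lower (log2 changes of -0.38 for Acta1, -0.49 for Ckm, -0.39 for Mylpf and -0.35 for Tnnt3). Ckm was also called lower with equal medians of all probes (-0.24, adjusted p = 0.025).

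Of all tested genes 37.7% passed: 19.3% were higher in mdx and 18.5% lower, 1725 and 1651 genes. These shares are the background for the counts of each gene list below. Changes of at least 2-fold were uneven: 511 genes (5.71%) rose by that much and 139 (1.55%) fell. Every mdx array lay above every wild-type array for 17.2% of genes and below for 15.1%. The median log2 change of all genes was -0.05, and 5% of genes lay above 1.08 and 5% below -0.68. The even split of small changes depended on the scaling. With arrays scaled to equal medians of all probes, the median of all genes was 0.07 and 71.9% of called genes were higher. Scaled to equal medians of the probes that passed the detection filter, it was -0.19 and 31.8% were higher. Changes much larger than these shifts are the main subject below. A gene could enter the test by being detected in mdx alone: 725 genes were detected on mdx arrays and on no wild-type array, 362 of them called higher, against 130 with detection in wild type alone, 49 of them called lower. A further 46 tested genes were detected on none of the 9 arrays and entered through the other mdx arrays. In a separate fit of the 6672 genes detected on all 9 arrays 45.2% of called genes were higher. Counts below for members detected on all 9 arrays come from that fit, where a gene's call could differ from the main one.

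The largest rises were in a fetal myosin, an inhibitor of the calcium pump and products of macrophages. Myh8, the perinatal myosin heavy chain, had levels of 13.31, 12.98, 12.17, 12.06 and 12.48 in mdx and 6.81, 6.75, 6.57 and 7.33 in wild type (log2 change 5.74 ± 0.32, adjusted p = 3.9e-12). Mdx replicate 4 was lowest of the mdx arrays and still far above wild-type replicate 4, the highest of wild type. Sln encodes sarcolipin, a small membrane protein that uncouples calcium transport from ATP use, and stood at 12.66, 12.47, 12.30, 12.28 and 12.31 in mdx against 7.51, 7.86, 8.03 and 7.26 in wild type (4.73 ± 0.26, adjusted p = 3.6e-12). Its mdx arrays lay close together and far above all wild-type arrays. Ccl8, a chemokine for monocytes, measured 9.76, 10.00, 10.05, 9.85 and 9.04 in mdx and 5.13, 4.78, 6.26 and 5.00 in wild type, where 1 of 4 arrays detected it (4.45 ± 0.44, adjusted p = 3.9e-08). The other wild-type arrays read at background, so the size of this change and its rank are approximate. Lgals3, the galectin of activated macrophages, was at 13.20, 12.97, 13.19, 13.61 and 12.82 in mdx and at 8.80, 8.69, 9.04 and 8.67 in wild type (4.36 ± 0.35, adjusted p = 2.1e-09). No array of one group reached the range of the other for any of these 4 genes.

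The deepest falls were in a phosphatase, a phosphatase inhibitor and genes first known from sperm and axons. Dusp26, a dual-specificity phosphatase, had levels of 6.60, 7.19, 7.22, 7.45 and 7.64 in mdx and 10.71, 10.71, 10.57 and 11.07 in wild type (log2 change -3.54 ± 0.18, adjusted p = 1.1e-12). Odf3l2, a relative of an outer dense fibre protein of sperm tails, stood at 5.71, 6.37, 6.82, 6.27 and 6.46 in mdx against 9.73, 9.19, 9.65 and 9.44 in wild type (-3.18 ± 0.29, adjusted p = 1.5e-08). Both were detected on all 9 arrays. Ppp1r1a, the cAMP-controlled inhibitor of protein phosphatase 1, was at 8.38, 8.98, 8.70, 8.85 and 9.10 in mdx and 12.03, 11.95, 11.78 and 11.89 in wild type (-3.11 ± 0.14, adjusted p = 1.1e-13). Cntnap2, which gathers potassium channels on axons, measured 4.85, 4.60, 4.76, 5.43 and 5.04 in mdx, where 1 of 5 arrays detected it, and 7.92, 7.84, 7.42 and 7.54 in wild type (-2.74 ± 0.19, adjusted p = 1.1e-10). The size of its fall and its rank are approximate, since the other mdx arrays read at background. The groups were separate for each of the 4 genes. Next in size, leaving Gnmt aside, came the EF-hand gene Efcab6 (-2.29 ± 0.18) and the lipid esterase Ces1d (-2.20 ± 0.27). The clock repressor Ciart (-2.15 ± 0.39) and Kcnab1 (-2.12 ± 0.16), described below with the channels, followed. The largest adjusted p of these 4 was 0.00014, for Ciart. Gnmt, a methyltransferase of hepatocytes, was also among the 12 deepest falls (-2.43 ± 0.88, adjusted p = 0.031), but its groups overlapped. It read 7.12 on mdx replicate 4 and 10.89 on wild-type replicate 2, the arrays richest in hepatocyte transcripts, and did not pass without wild-type replicate 2 (-1.47, adjusted p = 0.18) or with both left out. The Gnmt call also ended without wild-type replicate 1 (adjusted p = 0.051) or any of mdx replicates 1, 2, 3 and 5 (adjusted p up to 0.062).

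**Figure D1:**
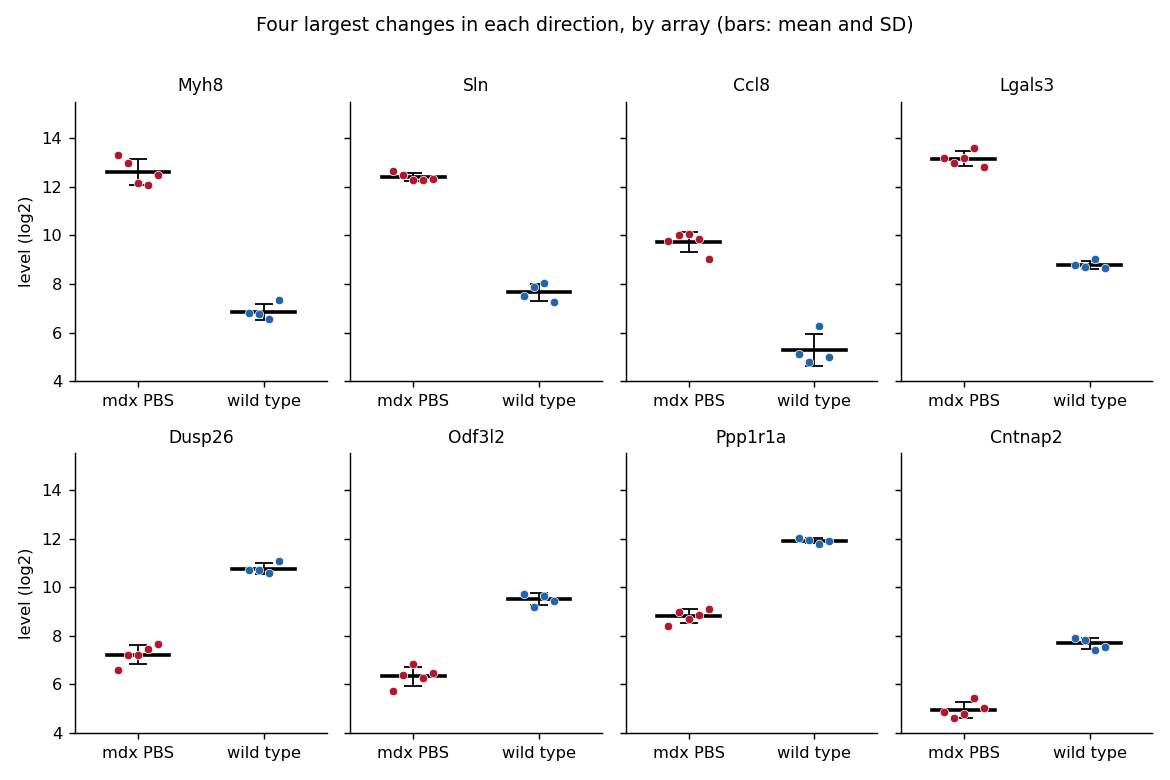
Levels (log2, vertical axis) on each array of the 4 genes with the largest rises (top) and the 4 with the deepest falls (bottom), with 5 PBS-injected mdx arrays at the left of each panel and 4 wild-type arrays at the right. Points are arrays, and bars give the mean and SD. The groups do not overlap in any panel, with log2 changes between 4.36 for Lgals3 and 5.74 for Myh8 in the upper row and between -3.54 for Dusp26 and -2.74 for Cntnap2 in the lower row. The sizes and ranks of Ccl8 and Cntnap2 are approximate, since most arrays of their lower group read at background.

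In the contractile apparatus, fetal isoforms and slow troponins rose beside adult fast isoforms of which few passed. Other slow isoforms were mixed. The slow myosin-binding protein Mybpc1 rose by 0.69. The slow light chain Myl2 (log2 change -0.02, adjusted p = 0.95) and the slow tropomyosin Tpm3 (0.00) did not pass. Actc1, the cardiac actin that fetal skeletal muscle also makes, averaged 13.93 ± 0.27 in mdx and 9.99 ± 0.33 in wild type (SD; log2 change 3.94 ± 0.17, adjusted p = 7.7e-14). Myl4, the embryonic light chain, averaged 13.44 ± 0.35 and 10.76 ± 0.07 (2.67 ± 0.27, adjusted p = 5.3e-08). The slow troponins followed, Tnni1 by 2.03 ± 0.30 and Tnnt1 by 1.12 ± 0.25. Myl3, the slow ventricular light chain, went the other way, with 13.04 ± 0.22 in mdx and 13.59 ± 0.11 in wild type (-0.55 ± 0.16, adjusted p = 0.0099). The slow myosin Myh7 ranged from 5.68 to 6.68 in mdx and from 4.93 to 6.80 in wild type and did not pass (0.66 ± 0.45, adjusted p = 0.27), but was called higher with each array's raw median signal as a covariate (1.22, adjusted p = 0.0083). The fast myosin Myh4, at 14.19 ± 0.15 and 14.24 ± 0.12, did not pass either (adjusted p = 0.83), but was called lower with equal medians of the passing probes (-0.49, adjusted p = 0.022). Myh1, the other fast myosin with a tested probe, was called higher (0.42 ± 0.15, adjusted p = 0.029), with no overlap between the groups. That call ended under both equal-median scalings and without wild-type replicate 2 (adjusted p = 0.078) or any of 3 other single arrays, and the gene's other probe moved the opposite way. Of 23 tested Z-disc and M-band genes 5 rose and 1 fell (median 0.03), a balance that turned to 3 up and 5 down with equal medians of all probes and to 2 up and 10 down with equal medians of the passing probes. Ankrd1, a stretch-responsive repeat protein that binds titin, led with 11.23 ± 0.31 in mdx against 8.18 ± 0.13 in wild type (3.04 ± 0.16, adjusted p = 1.1e-12).

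Acetylcholine receptor subunits rose, with the fetal one in front. The adult muscle receptor holds an epsilon subunit where the fetal receptor, which spreads over the fibre until nerve contact confines it to the synapse, holds gamma. Chrng, the gamma subunit, measured 9.21, 9.24, 8.98, 8.52 and 9.37 in mdx and 4.70, 4.63, 4.68 and 5.01 in wild type, where no array detected it. It was at least 11.6-fold higher in mdx (means 9.07 and 4.75, adjusted p = 6e-09), a bound that sets the mdx mean against, on each wild-type array, the higher of the lowest detected signal and the probe's own. All folds given below as "at least" are such bounds. Chrna1, the alpha subunit that both receptors share, read 10.70, 10.39, 10.38, 10.54 and 10.39 in mdx and 8.11, 8.16, 8.23 and 8.29 in wild type (log2 change 2.29 ± 0.22, adjusted p = 3.9e-08). Chrnb1, the beta subunit, averaged 11.31 ± 0.20 and 9.84 ± 0.11 (SD; 1.47 ± 0.12, adjusted p = 3.2e-09). For these 3 subunits all mdx arrays lay above all wild-type arrays. Chrne, the adult epsilon subunit, read 7.96, 7.80, 7.96, 8.15 and 8.41 in mdx against 7.73, 7.72, 7.89 and 7.88 in wild type and did not pass (0.25 ± 0.17, adjusted p = 0.26). Its groups overlapped, and with equal medians of all probes it was called higher (0.44, adjusted p = 0.04). Elsewhere at the synapse Ache, acetylcholinesterase, rose by 1.00 ± 0.18 (adjusted p = 9.4e-05) and Agrn, the nerve-derived organiser agrin, by 0.55 ± 0.13 (adjusted p = 0.002), while 4 of 10 tested junction genes rose in all and none fell.

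The promoters of 3 of the 4 tested subunits are shown because their readouts differ: gamma and alpha rose and epsilon did not pass. The promoter of Chrnb1, which also rose, was not read, so the letter counts below do not cover every subunit that rose. Each runs from 250 bases before to 50 after the gene start (RefSeq, GRCm38.p6), with CAGCTG in capitals, the E-box form that myogenic factors such as myogenin bind. Chrng lies at chr1:87205561-87205860 on the plus strand, Chrna1 at chr2:73580289-73580588 on the minus strand and Chrne at chr11:70619145-70619444 on the minus strand.
Chrng: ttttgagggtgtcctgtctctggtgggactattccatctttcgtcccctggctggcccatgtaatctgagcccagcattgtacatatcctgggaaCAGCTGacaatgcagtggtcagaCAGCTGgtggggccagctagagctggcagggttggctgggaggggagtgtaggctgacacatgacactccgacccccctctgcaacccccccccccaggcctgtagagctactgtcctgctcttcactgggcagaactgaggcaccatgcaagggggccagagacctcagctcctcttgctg
Chrna1: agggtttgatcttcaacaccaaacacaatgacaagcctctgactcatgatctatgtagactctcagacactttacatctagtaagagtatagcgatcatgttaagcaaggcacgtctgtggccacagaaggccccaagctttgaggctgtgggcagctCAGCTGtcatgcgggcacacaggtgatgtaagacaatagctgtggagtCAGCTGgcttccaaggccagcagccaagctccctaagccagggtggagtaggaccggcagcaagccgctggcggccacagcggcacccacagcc
Chrne: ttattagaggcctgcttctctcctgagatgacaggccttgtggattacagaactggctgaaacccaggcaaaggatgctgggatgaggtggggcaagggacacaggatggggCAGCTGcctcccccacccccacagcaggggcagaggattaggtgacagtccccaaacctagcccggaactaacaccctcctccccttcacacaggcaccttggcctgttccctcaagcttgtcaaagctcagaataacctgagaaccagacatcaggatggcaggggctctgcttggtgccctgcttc
CAGCTG reads the same on both strands. It stood 2 times in the Chrng window, 2 times in Chrna1 and 1 time in Chrne. Of 32851 mouse promoters of this length 16.3% held it at least once and 1.90% at least 2 times. These matches describe the letters only.

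Of 29 tested genes of the sarcoplasmic reticulum and calcium handling 9 rose and 1 fell (median 0.11). Besides Sln, rises were found in Casq2, the slow and cardiac calsequestrin that stores calcium (log2 change 1.66 ± 0.26), and in Atp2a2, the slow and cardiac calcium pump (1.02 ± 0.20, adjusted p = 0.00035). Sri, the calcium-binding sorcin, and Sypl2, the triad protein mitsugumin 29, rose by 0.89 ± 0.22 and 0.84 ± 0.16. The fast pump Atp2a1 averaged 14.55 ± 0.05 in mdx and 14.49 ± 0.09 in wild type (SD, adjusted p = 0.49), and was called lower with equal medians of the passing probes (-0.35, adjusted p = 0.0077). The 1 fall was in Slc8a1, the sodium-calcium exchanger of the surface membrane, at 7.21 ± 0.07 against 7.96 ± 0.06 (-0.75 ± 0.10, adjusted p = 2.1e-06). With equal medians of the passing probes the list's counts were 7 up and 8 down and its median -0.11, so the list as a whole had no direction that held under each scaling.

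Potassium channel genes fell more often than they rose. Of 24 tested channel and pump genes 12 fell and 4 rose (median -0.40, against -0.05 over all genes), and 10 to 15 fell under the other scalings. Kcnab1, a beta subunit that speeds the closing of voltage-gated potassium channels, read 5.78, 5.89, 5.96, 5.63 and 5.11 in mdx and 8.05, 7.75, 7.88 and 7.51 in wild type (log2 change -2.12 ± 0.16, adjusted p = 4.1e-10). Its sister Kcnab2 read 7.07, 7.36, 7.00, 7.52 and 7.06 in mdx and 4.97, 5.09, 4.95 and 5.05 in wild type, where it was undetected, and was at least 3.18-fold higher in mdx (means 7.20 and 5.02, adjusted p = 1e-06). The beta subunits thus moved in opposite directions with no overlap in either. A dimmer probe of Kcnab1 did not pass. Kcng4 (-1.09 ± 0.21), Kcnc4 (-0.89 ± 0.20) and Kcnn1 (-0.88 ± 0.16), a modifier subunit, a Shaw-type channel and a calcium-activated channel, fell as well. So did Aqp4, the water channel that the dystrophin complex holds at the fibre surface, with 6.59 ± 0.19 in mdx and 7.79 ± 0.20 in wild type (-1.19 ± 0.13, adjusted p = 1.5e-07). Fxyd5, a regulator of the sodium pump found in leukocytes and epithelia, rose by 1.60 ± 0.21.

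In a list of genes of the dystrophin complex, laminins and laminin receptors, rises outnumbered falls. Of 14 tested members 6 rose and 2 fell (median 0.24), with 57.1% called against 37.7% of all tested genes. The counts were 7 and 1 with equal medians of all probes. With equal medians of the passing probes they were 5 and 3 (median 0.07). Lamc1 and Lama2, chains of the muscle laminin, rose by 1.05 ± 0.13 and 0.79 ± 0.13, and Itga7, the other laminin receptor of fibres, by 0.66 ± 0.14 (adjusted p = 0.00064). Dag1, dystroglycan, rose by 0.49 ± 0.12. Sgca, a sarcoglycan, averaged 11.27 ± 0.17 in mdx and 11.41 ± 0.13 in wild type and did not pass (adjusted p = 0.38), but was called lower with equal medians of the passing probes (-0.47, adjusted p = 0.0029). The sarcoglycans Sgcb and Sgcd and the sarcospan gene Sspn did not pass either, with adjusted p of 0.29, 0.56 and 0.11. Dtnb, beta-dystrobrevin, was near background, detected on 1 of 5 mdx and 3 of 4 wild-type arrays, and fell by 0.53 on the log2 scale (adjusted p = 0.00076). The probe for Utrn, the dystrophin relative utrophin, read 5.33, 4.96, 5.67, 5.22 and 5.37 in mdx and 6.00, 5.48, 5.90 and 5.68 in wild type, detected on 2 of 5 and 3 of 4 arrays. Its call (-0.46 ± 0.17, adjusted p = 0.034) ended without wild-type replicate 1 (adjusted p = 0.11) or any of 4 other single arrays, and the groups overlapped.

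Membrane repair genes rose, 10 of 19 tested with none falling (median 0.52). Anxa2, a calcium-dependent phospholipid binder that patches torn membrane, measured 12.81, 12.74, 12.47, 12.90 and 12.60 in mdx and 11.39, 11.16, 11.18 and 11.18 in wild type (log2 change 1.48 ± 0.19, adjusted p = 1.3e-06). All mdx arrays lay above all wild-type arrays. Anxa5 (1.31 ± 0.16), Anxa4 (0.75 ± 0.14), the membrane-trafficking ATPase Ehd4 (1.09 ± 0.11) and the calpain Capn2 (0.63 ± 0.14) rose too. Dysf, dysferlin, was at 7.52 ± 0.28 in mdx and 7.38 ± 0.30 in wild type and did not pass (adjusted p = 0.65), but was called higher with each array's raw median signal as a covariate (0.43, adjusted p = 0.031). Several annexins are abundant in macrophages and fibroblasts, whose markers rose on the same arrays, and their part in these values was not tested.

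Genes of myogenic differentiation rose in 14 of 28 tested cases and fell in none (median 0.29), with Myh8, Actc1 and Chrng, described above, among the 14. Myog, the factor that commits myoblasts to differentiate, read 8.24, 8.10, 7.96, 7.58 and 7.96 in mdx against 6.20, 5.60, 5.29 and 5.55 in wild type (log2 change 2.31 ± 0.32, adjusted p = 4.8e-06). A second, dimmer Myog probe did not pass, with 6.32, 6.40, 6.26, 6.23 and 5.90 in mdx and 5.94, 5.61, 6.48 and 5.73 in wild type. Myod1, which acts before it, averaged 6.59 ± 0.19 and 5.62 ± 0.48 (SD; 0.96 ± 0.20, adjusted p = 0.00043), with wild-type replicate 1 at 6.34 inside the mdx range. Mymk, the myoblast fusion protein, was not detected on any wild-type array and was higher by at least 1.74-fold (means 6.33 and 4.52, adjusted p = 5.8e-05). The intermediate filament genes Vim and Nes, both made by new fibres, rose by 1.87 ± 0.24 and 1.16 ± 0.14, and vimentin is also made by fibroblasts and leukocytes.

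A set of imprinted genes that act on fetal growth rose alongside. Of 12 tested members 7 rose and none fell (median 0.55, or 0.31 with the 2 members undetected in wild type at their limit). Igf2, the fetal insulin-like growth factor, read 13.79, 13.60, 13.15, 12.95 and 13.42 in mdx against 9.68, 9.86, 9.77 and 9.95 in wild type (log2 change 3.57 ± 0.21, adjusted p = 7e-12). The mdx arrays were more spread than the wild-type arrays, and the groups were far apart. Mest, a hydrolase made from the paternal allele, was not detected on any wild-type array and was higher by at least 5.06-fold (means 7.87 and 5.13, adjusted p = 2.1e-07). Grb10, an adaptor that restrains insulin signalling, and Cdkn1c, a cell cycle inhibitor, rose by 1.27 ± 0.14 and 1.11 ± 0.13. Igf2r, the receptor that clears IGF2, rose by 0.75 ± 0.15 (adjusted p = 0.00031). Igf1 was called higher (0.74 ± 0.28, adjusted p = 0.037), a call that ended without wild-type replicate 1 (adjusted p = 0.12) or any of 4 other single arrays, and Igfbp7, a secreted IGF-binding protein, rose by 1.02 ± 0.11.

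Cell cycle genes rose in 18 of 33 cases and fell in 2 (median 0.69, or 0.33 with the 13 members undetected in 1 group at their limit). Of the 16 detected on all 9 arrays 8 rose and 2 fell. Prc1, which bundles the microtubules of the dividing cell, was not detected on any wild-type array and was higher by at least 3.51-fold (means 7.34 and 4.84, adjusted p = 8.1e-05). The cell cycle inhibitor Cdkn1a, switched on as myoblasts leave the cycle, rose by 1.61 ± 0.18, and the cyclin Ccnd1 by 1.22 ± 0.21. Aurka, a mitotic kinase, fell by 1.11 on the log2 scale, with 6.71 ± 0.12 in mdx and 7.82 ± 0.10 in wild type. Among the 12 largest rises of all stood H2ac7, a gene of replication-dependent histone H2A (3.68 ± 0.47, adjusted p = 1.4e-06). It was joined by H2ac12 (3.25) and H2ac10 (2.68), named after their values were seen. These copies lie on chromosome 13 and are nearly identical in sequence, so their probes may read each other's transcripts. Immediate early genes rose in 8 of 16 cases and fell in none, with Fos at 2.11 ± 0.40, Egr1 at 1.75 ± 0.23 and Junb at 1.33 ± 0.21.

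The extracellular matrix rose on a broad front. Of 14 tested collagen genes 13 rose and none fell (median 1.31). Col3a1, a fibril collagen, measured 9.24, 8.63, 8.91, 9.17 and 8.32 in mdx and 5.87, 6.84, 7.05 and 6.62 in wild type (log2 change 2.26 ± 0.27, adjusted p = 5.5e-07). Col5a1, which starts the fibrils, rose by 2.10 ± 0.14, and Col1a1 by 2.10 ± 0.28. All 3 kept the groups apart. Of 18 genes for collagen processing 13 rose, led by the collagen-cleaving cathepsin Ctsk (2.08 ± 0.22) and the crosslinking oxidase Loxl1. Of 25 proteoglycan and matricellular genes 18 rose, among them the spondin Spon2 (2.50 ± 0.32), biglycan Bgn (1.89 ± 0.17), lumican Lum (1.67 ± 0.24) and elastin Eln (1.34 ± 0.17), and no gene of these 3 lists fell.

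Metalloproteases and their inhibitors moved in both directions within 1 family. Timp1, an inhibitor that inflamed tissue makes, read 10.33, 10.33, 10.32, 10.21 and 10.34 in mdx and 6.22, 6.10, 6.43 and 5.83 in wild type (log2 change 4.16 ± 0.30, adjusted p = 3e-10). Mdx replicate 4 was the lowest of 5 nearly equal mdx values, and no wild-type array came near them. Timp2 rose by 0.64 ± 0.13. Timp3, which binds to the matrix, fell, with 9.47 ± 0.12 in mdx and 10.24 ± 0.13 in wild type (-0.77 ± 0.13, adjusted p = 4.1e-05). Timp4, the inhibitor of heart and muscle, read 7.52, 8.27, 7.87, 8.42 and 7.99 in mdx against 9.75, 9.18, 9.68 and 9.07 in wild type (-1.41 ± 0.25, adjusted p = 9.1e-05). The 4 inhibitors thus split into 2 higher and 2 lower, each with no overlap. Of the proteases, Mmp12 of macrophages was not detected on any wild-type array and was higher by at least 4.68-fold (means 7.76 and 4.65, adjusted p = 0.00011). So was the stromelysin Mmp3, at least 5.35-fold higher (means 7.95 and 5.10, adjusted p = 1.5e-08), and the membrane-bound collagenase Mmp14 rose by 2.25 ± 0.14. In all 19 of 25 tested genes of this list rose and 2 fell, or 13 and 2 of the 18 detected on all 9 arrays.

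The cytoskeleton list gave 21 rises and 2 falls among 28 genes (median 1.23, or 0.98 with 3 undetected members at their limit). Tubb2b, a beta-tubulin of growing neurites, read 10.58, 10.49, 10.37, 10.25 and 10.38 in mdx and 7.68, 7.42, 7.40 and 7.39 in wild type (log2 change 2.94 ± 0.30, adjusted p = 5.3e-08). Tubb6, a beta-tubulin that disorders microtubules in dystrophic fibres of mice, averaged 11.07 ± 0.08 and 8.40 ± 0.20 (SD; 2.68 ± 0.20, adjusted p = 3.7e-10). Tmsb10, a thymosin that binds free actin, rose by 2.62 ± 0.22, and Coro1a, the coronin of leukocytes, by 2.40 ± 0.25. The falls were in the alpha-tubulin Tuba8 of adult striated muscle, at 10.81 ± 0.26 in mdx and 11.52 ± 0.18 in wild type (-0.71 ± 0.18, adjusted p = 0.0031), and in the smooth muscle gene Tagln (-0.95 ± 0.15).

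**Figure D2:**
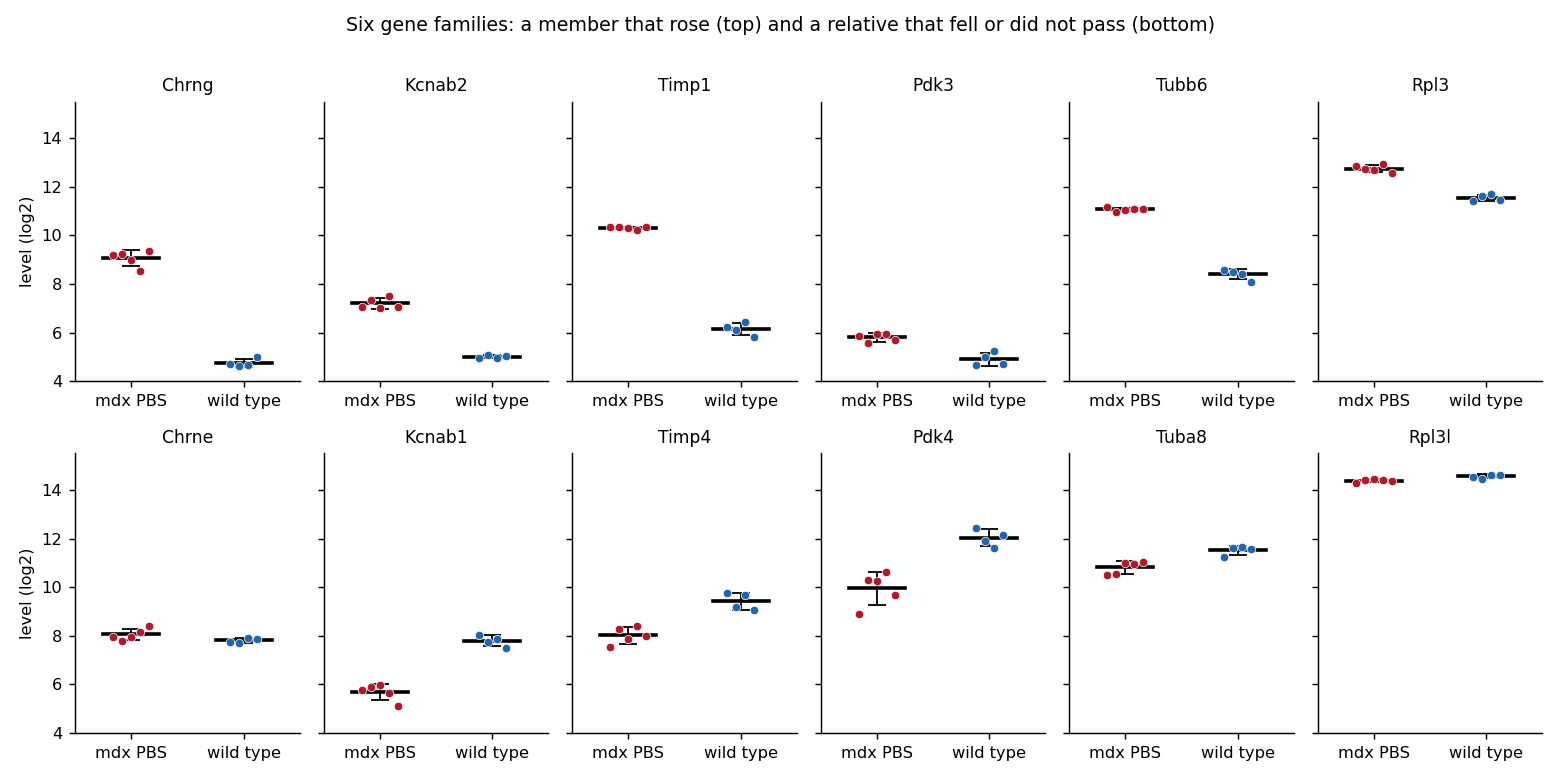
Levels (log2, vertical axis) on each array for 6 pairs of related genes, with 5 PBS-injected mdx arrays at the left of each panel and 4 wild-type arrays at the right. Points are arrays, and bars give the mean and SD. The upper genes were all called higher in mdx, while below them Kcnab1, Timp4, Pdk4 and Tuba8 were called lower and Chrne and Rpl3l did not pass.

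General markers of macrophages rose. All 15 tested were higher (median 2.79), and their mean level was 8.39 to 9.13 on the mdx arrays and 6.19 to 6.51 on the wild-type arrays. The 5 of them detected on all 9 arrays were all higher. Ms4a7, a membrane protein of mature macrophages, measured 10.02, 9.22, 9.73, 9.95 and 9.15 in mdx and 5.19, 5.42, 6.12 and 5.15 in wild type, where 1 of 4 arrays detected it and the others read at background, so the size is approximate (log2 change 4.15 ± 0.40, adjusted p = 3.2e-08). Lysozyme Lyz2 rose by 3.43 ± 0.33 and the F4/80 gene Adgre1 by 3.07 ± 0.27. Mdx replicate 5 was the lowest mdx array for Ms4a7, Lyz2 and Adgre1, and still above every wild-type array. Of 17 tested genes of tissue-resident macrophages 12 rose and none fell (median 1.05). The complement gene C1qb (2.96 ± 0.34), the mannose receptor Mrc1 (1.78 ± 0.23) and the folate receptor Folr2 (1.50 ± 0.36) were among them. Cd163, the haemoglobin scavenger receptor, averaged 6.68 ± 0.26 and 6.40 ± 0.45 and did not pass (adjusted p = 0.28), nor did Lyve1, Vsig4 or Cbr2, with adjusted p of 0.60, 0.45 and 0.79. With equal medians of all probes Cd163 was called higher (0.53, adjusted p = 0.031). No test compared the resident markers that rose with those that did not pass.

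Genes of macrophages that take up lipid and debris rose in 15 of 21 cases and fell in 3. Gpnmb, a glycoprotein of phagocytes laden with debris, rose by 3.75 ± 0.37, although its dimmest probe did not pass, and Trem2, a receptor for lipids, was not detected on any wild-type array and was higher by at least 9.43-fold (means 8.77 and 5.32, adjusted p = 1.1e-06). Among 24 genes of Fc receptors and ITAM signalling 22 rose and none fell (median 1.72, or 1.37 with 12 undetected members at their limit). Of the 4 detected on all 9 arrays 3 rose and none fell. Fcgr4 was not detected on any wild-type array and was higher by at least 8.02-fold (means 8.54 and 4.89, adjusted p = 5.3e-08), and the shared signalling chains Fcer1g and Tyrobp rose by 3.08 ± 0.31 and 3.07 ± 0.41. MHC class II genes, which present peptides to helper T cells, rose in 7 of 8 cases. H2-Ab1 read 12.04, 11.66, 11.92, 12.01 and 11.28 in mdx and 9.07, 8.57, 9.47 and 8.84 in wild type (2.80 ± 0.22, adjusted p = 1.6e-09). The class I light chain B2m, made by nearly all cells, rose by 0.96 ± 0.17. Of 42 chemokine and cytokine genes 24 rose and none fell (median 0.63, or 0.48 with 17 members undetected in 1 group at their limit). With equal medians of the passing probes 22 rose and 2 fell. The separate fit of genes detected on all 9 arrays held 14 of them, of which 6 rose and 1 fell. Rises in the main fit included Cxcl16 (2.67 ± 0.31), Ccl9 (2.30 ± 0.40) and the receptor Cx3cr1 (1.68 ± 0.22). Lysosomal genes rose in 27 of 48 cases and fell in 2 (median 0.49). Interferon-induced genes rose in 16 of 28 cases with none falling (median 0.66, or 0.50 with 6 members undetected in 1 group at their limit). Of the 20 detected on all 9 arrays 9 rose and none fell.

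Other cell types gave a mixed picture. Of 20 T and NK cell genes with a probe 8 were tested, of which 3 rose and 1 fell (median 0.11, or 0.00 with 4 members undetected in 1 group at their limit). The T cell markers Cd3d, Cd3e, Cd3g, Cd4 and Cd8a did not pass the detection filter. Of 11 B cell genes with a probe 3 were tested and none passed, with Cd79b at 5.57 ± 0.28 in mdx and 5.38 ± 0.18 in wild type. The B cell markers Cd79a and Ms4a1 did not pass the filter. Of 5 neutrophil genes 3 rose (median 0.94, or 0.32 with 3 members undetected in 1 group at their limit), and the 1 member detected on all 9 arrays did not pass. Of the rises, Retnlg, a resistin-like gene of that cell, was not detected on any wild-type array and was higher by at least 3.44-fold (means 7.31 and 4.61, adjusted p = 1.8e-07). Mast cell and eosinophil genes rose in 6 of 7 cases and fell in 1, with the chymase Cma1 at 1.10 ± 0.21. Of 15 genes of fibro-adipogenic progenitors 8 rose and 1 fell, the receptor Pdgfra by 0.80. Endothelial genes had a median of -0.01, with 3 of 21 higher and 2 lower. Pecam1, the endothelial adhesion molecule, averaged 8.35 ± 0.26 in mdx and 8.17 ± 0.12 in wild type (adjusted p = 0.46), and the apelin receptor Aplnr rose by 1.09 ± 0.25. In pericytes and smooth muscle the contractile myosin Myh11 fell by 0.84 on the log2 scale (adjusted p = 0.00017). None of 4 erythroid genes passed.

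Myelin and adipocyte lists held more falls than rises. Of 6 tested Schwann cell genes 4 fell and 1 rose, or 2 and 1 with equal medians of all probes, and the list's mean level was 7.05 to 7.21 on the mdx arrays and 7.39 to 7.83 on the wild-type arrays. Mbp, myelin basic protein, measured 8.38, 8.42, 8.38, 8.06 and 8.34 in mdx and 9.89, 9.38, 9.73 and 9.71 in wild type (log2 change -1.36 ± 0.19, adjusted p = 4.1e-06), while another of its probes was called the opposite way, higher in mdx. Ncmap, a protein of noncompact myelin, fell by 1.25 on the log2 scale (adjusted p = 4.7e-06). The groups were separate for both. The 1 rise was in Egr2, a factor that drives myelination in Schwann cells and is also an immediate early gene (0.75). Of 15 adipocyte genes 8 fell and none rose (median -0.50), and the list's mean level overlapped between the groups, with 8.40 to 9.11 on the mdx arrays and 9.00 to 9.45 on the wild-type arrays. Dgat2, which makes triglyceride, averaged 9.14 ± 0.33 in mdx and 10.41 ± 0.14 in wild type (-1.27 ± 0.19, adjusted p = 8.9e-06), and leptin, Lep, fell by 1.29 ± 0.29 (adjusted p = 0.0011). Adipoq, the adipocyte hormone adiponectin, read 9.32, 9.76, 9.57, 8.97 and 8.11 in mdx and 9.96, 9.70, 10.27 and 9.28 in wild type, overlapped and did not pass (-0.66 ± 0.28, adjusted p = 0.07). It was called lower with equal medians of the passing probes (-0.85, adjusted p = 0.019), with each array's raw median signal as a covariate (-0.96, adjusted p = 0.0036), and without mdx replicate 2 (-0.81), mdx replicate 3 (-0.76) or wild-type replicate 4 (-0.83).

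**Figure D3:**
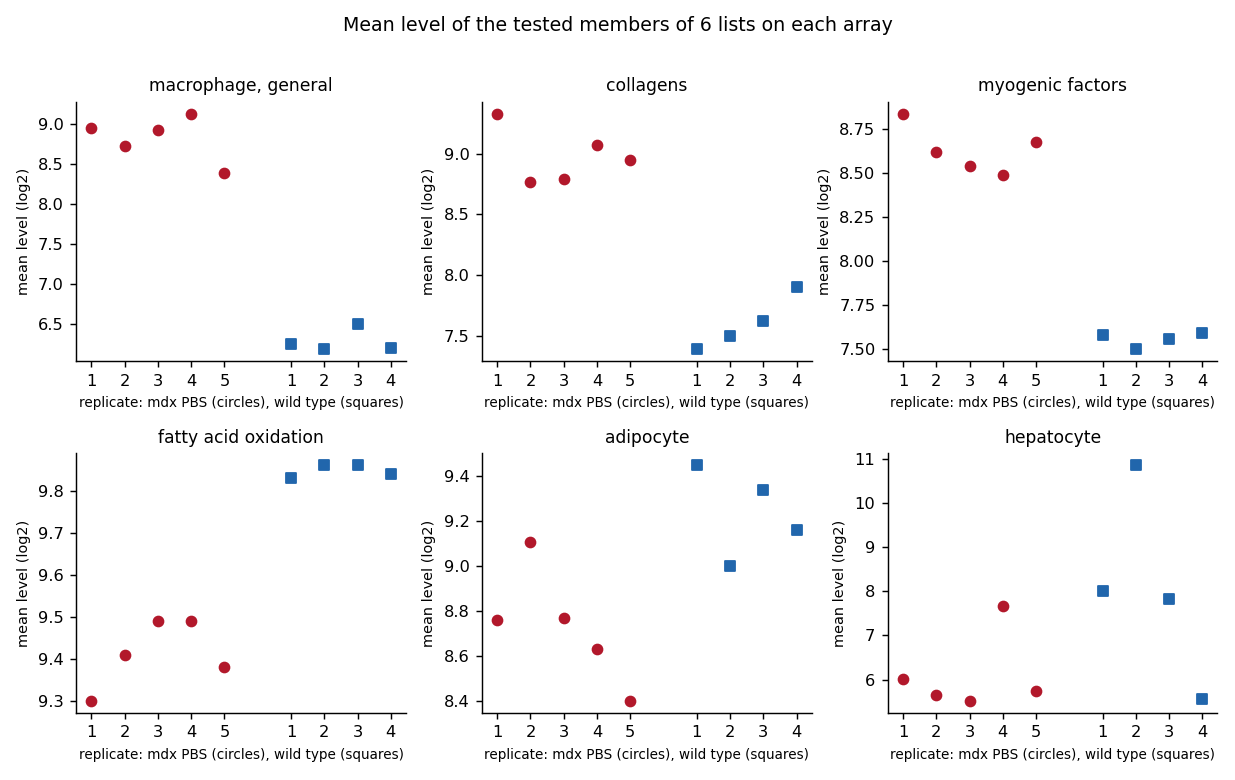
Mean level (log2, vertical axis, a separate scale in each panel that does not start at 0) of the tested members of 6 gene lists on each array, with 5 PBS-injected mdx arrays as circles and 4 wild-type arrays as squares. Macrophage, collagen and myogenic genes were higher on every mdx array and fatty acid genes lower, adipocyte genes overlapped between the groups, and hepatocyte genes spread from 5.52 to 7.67 in mdx and from 5.57 to 10.85 in wild type.

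Transcripts for fatty acid use fell more often than they rose. Of 37 tested genes of fatty acid uptake and oxidation 23 fell and 1 rose (median -0.40), and 21 to 24 fell under the other scalings. Pdk4, the kinase that shuts pyruvate out of the mitochondrial cycle when fat is burned, read 8.89, 10.28, 10.27, 10.63 and 9.68 in mdx and 12.43, 11.91, 11.62 and 12.15 in wild type (log2 change -2.08 ± 0.45, adjusted p = 0.00083). Mdx replicate 1 was lowest, and all 5 lay below wild type. Slc27a1, a fatty acid transporter, measured 6.97, 7.45, 7.05, 7.28 and 7.66 in mdx and 8.48, 8.35, 8.53 and 8.69 in wild type (-1.23 ± 0.15, adjusted p = 1.2e-06). Ucp3 (-1.75 ± 0.33), an uncoupling protein that follows fat use, the thioesterase Acot1 (-1.19 ± 0.18), the malonyl-CoA decarboxylase Mlycd (-0.96 ± 0.13) and the carnitine carrier Slc25a20 (-0.57 ± 0.09) fell too.

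Other arms of energy metabolism changed less, and less evenly. The 4 pyruvate dehydrogenase kinases did not move together. Pdk2 fell by 0.72 ± 0.21 and Pdk1 by 0.60 ± 0.09, like Pdk4, while Pdk3 read 5.88, 5.56, 5.96, 5.95 and 5.70 in mdx and 4.67, 5.01, 5.25 and 4.71 in wild type, where it was undetected, and was at least 1.21-fold higher (means 5.81 and 4.91, adjusted p = 3.5e-05). Among 34 genes of glucose and glycogen use 9 fell and 5 rose (41.2% called, against 37.7% of all tested genes). With equal medians of the passing probes 24 fell and 4 rose. Falls included the glucose transporter Slc2a3 (-1.35 ± 0.17) and the muscle fructose bisphosphatase Fbp2 (-0.99 ± 0.14). Respiratory complex I gave 7 falls and no rise among 36 subunits and assembly factors, and complexes II to V 3 falls and 2 rises among 44 genes. Calls made up 19.4% and 11.4% of these lists, against 37.7% of all tested genes, with 18.5% of all genes lower. Both counts of falls hung on the scaling: with equal medians of the passing probes 34 and 32 genes fell. Mitochondrial ribosome genes fell in 19 of 67 cases with no rise (median -0.19), with Mrps15 (-0.69 ± 0.17) and Mrpl55 (-0.61 ± 0.11) in front. Calls, all of them falls, made up 28.4% of that list, against the same 37.7% called and 18.5% lower. The falls numbered 12 with equal medians of all probes and 45 with equal medians of the passing probes. Among regulators and carriers of mitochondria 12 of 33 fell and 1 rose, and 11 to 21 fell under the other scalings. Calls made up 39.4% of that list, close to the 37.7% of all tested genes. The nuclear receptor Esrrb fell by 1.47 ± 0.15 and the carrier Slc25a34 by 1.31 ± 0.19, the ADP/ATP carrier Slc25a5 of growing cells rose by 0.88 ± 0.21, and the coactivator Ppargc1a averaged 8.01 ± 0.18 in mdx and 8.16 ± 0.25 in wild type (adjusted p = 0.47).

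Creatine and polyamine genes moved in both directions. Gamt, which completes creatine synthesis, averaged 11.04 ± 0.19 in mdx and 9.25 ± 0.21 in wild type (SD; log2 change 1.78 ± 0.12, adjusted p = 1.6e-10), and the brain-type creatine kinase Ckb rose by 1.30 ± 0.18. Of the polyamine pathway, the synthetic enzymes Amd2 (-2.02 ± 0.29) and Odc1 (-0.80 ± 0.14) and the spermine oxidase Smox (-1.01 ± 0.31) fell. The acetyltransferase Sat1, which starts polyamine export and breakdown, rose by 1.24 ± 0.24 (adjusted p = 0.00025). In all 4 of 22 tested genes of these pathways rose and 6 fell.

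Metallothioneins rose while many detoxifying enzymes fell. Mt1, a zinc-binding protein that stress and glucocorticoids induce, read 12.87, 13.63, 13.74, 12.97 and 13.49 in mdx and 11.12, 10.71, 11.28 and 10.87 in wild type (log2 change 2.35 ± 0.27, adjusted p = 3.8e-07). Mt2 rose by 1.49 ± 0.31, with 2 of 4 wild-type arrays detecting it. Mt3 was not detected on any wild-type array and was higher by at least 2.77-fold (means 7.00 and 4.72, adjusted p = 9.4e-08). All 3 metallothioneins kept the groups apart. Of 41 tested antioxidant and detoxification genes 6 rose and 13 fell (median -0.18), and 12 to 21 fell under the other scalings. The peroxidases Gpx1 (1.04 ± 0.14) and Gpx8 (1.31 ± 0.23) rose. Falls were found in catalase, Cat, the quinone reductase Nqo1 (-0.94 ± 0.11), the secreted peroxidase Gpx3 (-0.81 ± 0.15) and the glutathione transferases Gsta4 (-0.94 ± 0.13) and Mgst1 (-1.27 ± 0.29).

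Ubiquitin ligases of atrophy were lower in mdx. Fbxo32, atrogin-1, measured 9.52, 10.51, 10.11, 10.59 and 10.79 in mdx and 11.73, 11.37, 11.68 and 11.79 in wild type (log2 change -1.34 ± 0.22, adjusted p = 5e-05). Trim63, MuRF1, averaged 9.68 ± 0.29 and 10.43 ± 0.18 (SD; -0.74 ± 0.17, adjusted p = 0.0013). The groups were separate for both. The cullin adaptors Asb10 (-1.13 ± 0.17), Asb11 (-0.90 ± 0.15) and Klhl38 (-1.05 ± 0.17) fell as well, so that 11 of 26 tested genes of atrophy and its ligases fell and 5 rose (7 and 6 with equal medians of all probes), Mt1, Cdkn1a, Mt2 and Gadd45a (0.93 ± 0.13) among the 5. Autophagy genes fell in 9 of 32 cases and rose in 1, with 31.2% called against 37.7% of all tested genes. With equal medians of all probes 6 fell and 3 rose, and with equal medians of the passing probes 15 fell and none rose. Of 24 tested genes of endoplasmic reticulum folding and stress 12 rose and 3 fell (median 0.28, or 0.13 with 2 undetected members at their limit), with the disulfide isomerases Pdia3 (0.91 ± 0.17) and Pdia4 (0.82 ± 0.15) and the factor Xbp1 (0.67 ± 0.10) among the rises. Among 26 heat shock genes 5 rose and 5 fell, or 1 and 13 with equal medians of the passing probes. Calls made up 38.5% of them, close to the 37.7% of all tested genes. The paralogs Hspa2 (1.12 ± 0.11) and Hspa1l (-1.13 ± 0.14) moved apart.

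Of 56 tested cytosolic ribosome genes 2 rose and 3 fell, and the median was -0.00. The rises were in Rpl3 and Rpl13a (0.77, adjusted p = 0.01), the second of which did not pass without both hepatocyte-rich arrays (adjusted p = 0.052). Rpl3, a core protein of the large subunit, read 12.84, 12.75, 12.69, 12.93 and 12.56 in mdx and 11.43, 11.64, 11.69 and 11.46 in wild type (log2 change 1.20 ± 0.18, adjusted p = 1.5e-05). Rpl3l, which takes its place in adult striated muscle, read 14.29, 14.40, 14.45, 14.40 and 14.38 in mdx and 14.55, 14.44, 14.63 and 14.61 in wild type and did not pass (-0.17 ± 0.11, adjusted p = 0.21), although it was called lower with equal medians of all probes (-0.33, adjusted p = 0.0094) and of the passing probes. With equal medians of the passing probes 32 ribosome genes were called lower and the median was -0.37. That scaling moved the median of all genes by less.

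Of 15 clock genes 7 fell and none rose (median -0.64). Ciart read 5.25, 5.99, 5.32, 5.16 and 5.82 in mdx and 6.74, 8.00, 7.73 and 8.16 in wild type, with no overlap (adjusted p = 0.00014), and Rora, a nuclear receptor that drives the loop, fell by 0.81 ± 0.17. Falls of Per1 and Per2 passed (adjusted p = 0.023 and 0.025) and each ended when any of 3 single arrays was left out, with the highest adjusted p at 0.091 for Per1 without wild-type replicate 4 and at 0.071 for Per2 without mdx replicate 3. The clock gene Arntl was at 7.59 ± 0.43 in mdx and 7.27 ± 0.28 in wild type and did not pass (adjusted p = 0.49). The labels give no hour of sampling, so genotype and time of day cannot be told apart. With both arrays richest in hepatocyte transcripts left out 3 of the 15 genes fell.

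Of 11 genes of the activin and myostatin pathway 2 rose and 2 fell, with 36.4% called, close to the 37.7% of all tested genes. The follistatin-related Fstl1 rose by 1.35 ± 0.18, and Fst, follistatin, which binds activins and myostatin, averaged 6.29 ± 0.22 in mdx and 5.63 ± 0.47 in wild type (SD; log2 change 0.66 ± 0.18, adjusted p = 0.0069), with overlap between the groups. Wfikkn2, a myostatin-binding protease inhibitor, fell by 0.69 ± 0.17. Tgfb1, the growth factor of fibrosis, rose by 1.54 ± 0.26, and Nrros, which stores it on macrophages and microglia, by 1.63 ± 0.24.

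**Figure D4:**
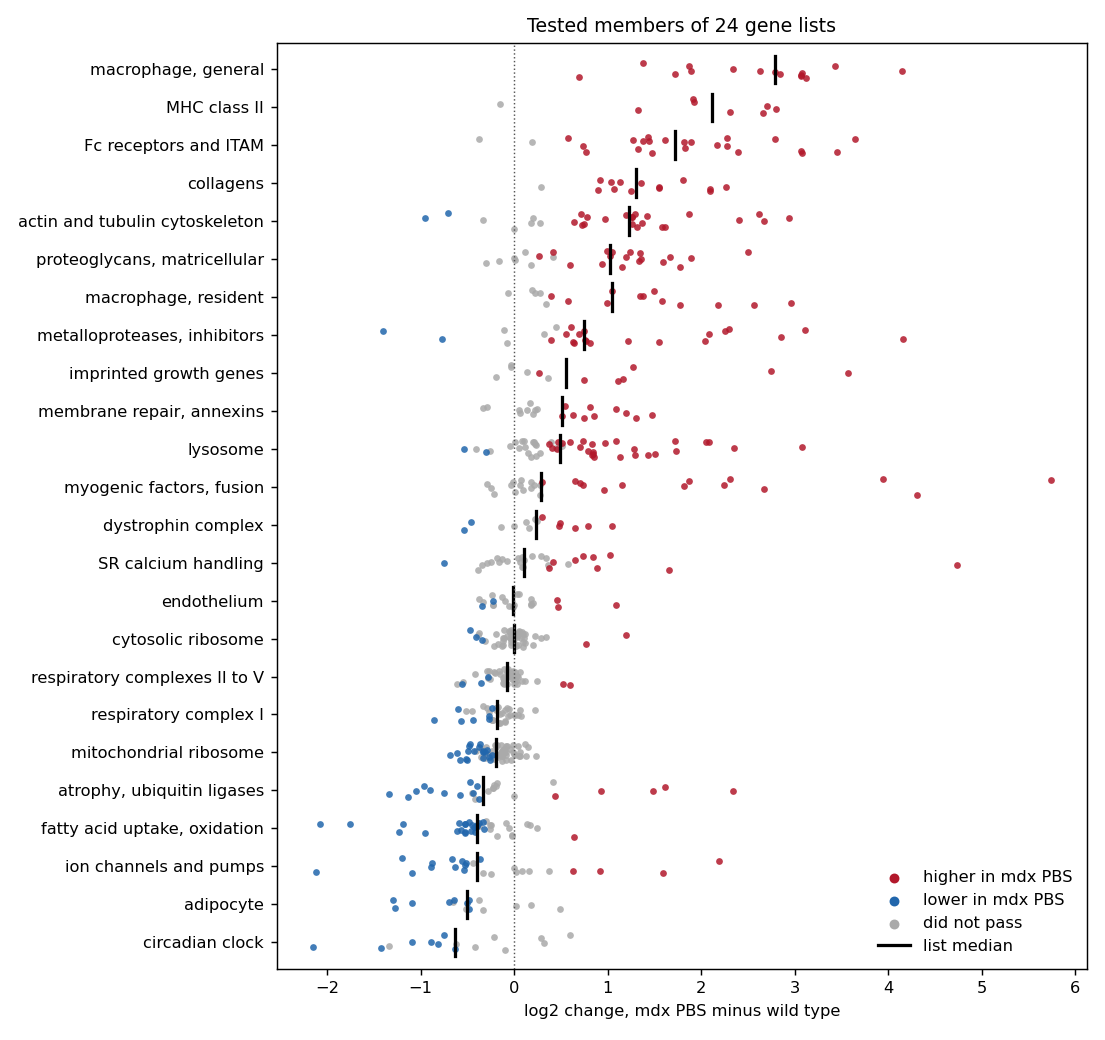
Log2 change (horizontal axis, PBS-injected mdx minus wild type) of each tested member of 24 gene lists, ordered from immune and matrix lists at the top to lists with falling members at the bottom. Points are genes, red where called higher, blue where called lower and grey where they did not pass, and black bars are list medians, which run from 2.79 for general macrophage markers to -0.64 for clock genes.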

How the data were processed

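Gene expression was measured on bead arrays. Per the file headers, the authors deposited the mean bead signal intensity of each probe with a detection p-value for every array, and a table of log2 values. The deposited log2 values equalled the quantile-normalised signal without background correction to within 0.005. What software made them is not given in the sources used here. Signals were background-corrected from the detection p-values (limma's nec, normexp with an offset of 16), quantile-normalised and log2-transformed in R 4.3.3 with limma 3.58.1. Probes detected (p under 0.05) on at least 4 of 24 arrays were kept, 12623 of 25697, and each gene was read from its brightest probe on average. A platform table gave 1 symbol to 23978 probes and none to 1719. The model held 5 group means over 24 arrays, with empirical Bayes moderation and Benjamini-Hochberg adjustment over 8945 genes. The genes named were the 12 largest changes in each direction, up to 5 called members of each gene list, up to 2 more that moved against most, a fixed set of muscle genes, and for lists with no call the 2 highest; a selection of these is described, and genes from outside the rule are given as members that did not pass or as partners of a named gene. The comparison and the 70 gene lists (1361 genes tested) were chosen with earlier results of these data known. On simulated data for this comparison 54% of 100 genes changed by 0.5 and 95% of 100 changed by 1 on the log2 scale were recovered among 8945 genes, with 6 false calls of 155. The simulation changed few genes and drew independent noise after normalisation. In the data 37.7% of genes passed and results moved with the scaling, so these rates may not hold there. The number of arrays limits the precision. Alternatives covered background correction, scaling, filters, probe choice, covariates, array weights, pairing and leaving out each array.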

Additional observations from a re-analysis of the deposited data

Results flagged for a closer look

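In 25 of 386 groups of values, 1 array stood apart from the rest of its group by Dixon's test, which chance does in about 1 in 20. Mdx replicate 5 was the low array for Ccl8 (9.04), Ces1d (7.97), Folr2 (7.68), Gpnmb (11.15), Lyve1 (5.21) and Mgst1 (8.80), and the high one for Dysf (8.00). Mdx replicate 1 was low for Fbp2 (9.86) and Klhl38 (6.21) and high for Col5a1 (10.73). Mdx replicate 4 was high for Fxyd5 (9.97) and for the hepatocyte gene Gnmt (7.12) and low for Mbp (8.06) and Timp1 (10.21). In wild type, replicate 1 was high for Anxa2 (11.39) and Tubb2b (7.68) and low for Tuba8 (11.25). Wild-type replicate 2 was high for Cat (8.45) and low for Grb10 (9.22) and Nrros (5.75). Wild-type replicate 4 was high for Gadd45a (9.10), Lama2 (7.61) and Sypl2 (12.92) and low for Mrpl55 (10.06) and Pdia3 (8.73).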

How the results depend on the processing

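Leaving out each array in turn gave 1516 to 1666 genes higher and 1355 to 1611 lower in mdx, and 483 to 529 and 114 to 205 at least 2-fold, with the highest of the last without wild-type replicate 4. Of 3376 calls 2410 were kept in each of these runs, and 634 of 650 of at least 2-fold. With equal medians of all probes 862 genes were lower, 86 at least 2-fold, and 755 had every mdx array below wild type. With equal medians of the passing probes, added after seeing the data, these were 2882, 236 and 2254. Without background correction 289 genes were at least 2-fold higher and 58 lower. Restricted to genes detected on all 9 arrays, also added later, 287 were at least 2-fold higher and 102 lower, from fewer genes tested (6672). In that run 1203 genes were higher and 1460 lower. The causes of the scaling shifts were not tested. Arrays of the same replicate number had correlations of deviations of 0.28, -0.18, 0.07 and -0.44 for replicates 1 to 4. Replicates 1 and 3 were each other's best match. The raw median signal was highest on replicate 1 and lowest on replicate 4 or 5 in each of the 5 groups, so the number followed a shared order of signal. Whether it pairs the arrays is not given in the labels. The fit with the replicate number as a block gave 1679 genes higher and 1522 lower, 528 and 138 of them at least 2-fold. That fit also called Lyve1 (0.42) and Vsig4 (0.45) higher and ended the call of Gnmt (-2.35, adjusted p = 0.084). Leaving out both arrays richest in hepatocyte transcripts, added later, gave 1416 and 1270. Of the named genes, Myh1 turned direction with its dimmer probe (-0.05, adjusted p = 0.9). With the dimmest probe the calls of Gpnmb (0.42), Kcnab1 (-0.19), Myog (0.28) and Gnmt (-1.33) ended. Changes near background have only a bound, and small changes in bright genes moved with the scaling.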

Other observations

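S100 genes, calcium-binding proteins of which several are released by inflammatory cells, rose in 6 of 8 tested cases and fell in none (median log2 change 0.85). NADPH oxidase genes rose in 6 of 7 cases (median 1.02, or 0.45 with 5 members undetected in wild type at their limit). Of the 2 detected on all 9 arrays 1 rose. Complement genes rose in 10 of 17 cases and fell in 3, and integrins and adhesion genes rose in 9 of 18 and fell in 2. Of members detected on all 9 arrays, 8 of 9 complement genes rose and 1 fell. Of 11 such adhesion genes 5 rose and 2 fell. Cholesterol synthesis gave 3 rises and 4 falls among 17 genes, but 6 and 1 with equal medians of all probes. The proteasome gave 1 rise and 6 falls among 34 genes (20.6% called, against 37.7% of all tested genes), but 1 and 19 with equal medians of the passing probes. Of 22 hepatocyte genes 2 fell and none rose, although their median was the lowest of all lists (-2.17). Their mean level spread from 5.52 to 7.67 on the mdx arrays and from 5.57 to 10.85 on the wild-type arrays.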
